A study of Caenorhabditis elegans with 2 samples.

Results

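Of the 5333 thresholded HMG-1.2 ChIP-seq peaks of replicate 2, 2710 shared no base with any thresholded peak of replicate 1 and are called absent peaks here. The other 2623 shared at least 1 base with one and are called shared peaks. Both thresholded lists are the authors', with 3340 peaks in replicate 1 and 5333 in replicate 2. A further 653 peaks of replicate 1 overlapped none of replicate 2. Members were chosen by the overlap of thresholded peaks, and hence by the signal and score that put a peak into either list. Those values are given below as description.

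ChIP-seq recovers DNA attached to a protein in fixed tissue, and here the protein was HMG-1.2 with a tag. The single group held 2 biological replicates of whole Caenorhabditis elegans of strain RW12210. In allele st12210 on chromosome III, hmg-1.2 carries TY1, EGFP and 3xFLAG tags, which had been inserted with CRISPR. Animals were young adults of 65 hours, synchronized by starving L1 larvae after bleaching. The sample descriptions name an anti-GFP antibody for the precipitation, whereas the antibody entry reads hmg-1.2. Every animal carried the tag, so no untagged group enters the lists. Control libraries were not analysed here, and the labels do not state whether the replicates came from separate cultures. Whole animals were used, so a peak cannot be placed in a tissue. With 1 group of 2 replicates there was no test between conditions. The lists carry no read totals, so the depth of either library is unknown. Read depth, immunoprecipitation yield and binding cannot be told apart as sources of a peak called in 1 replicate.

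HMG boxes are domains that bind and bend DNA, many of them with little sequence preference. Proteins that carry them take part in chromatin structure and transcription. In C. elegans, hmg-1.2 has been linked genetically to Wnt signalling, the pathway that ends in the HMG-box factor POP-1. A thresholded list keeps peaks whose rank is reproducible, as measured by the irreproducible discovery rate (IDR). The ranked list also holds the peaks that fail this threshold. Which peak sets were compared to score the list of a single replicate was not examined here. That score is therefore not read as agreement between the replicates. The authors' score rises with reproducibility, is capped at 1000, and was at least 830 in every thresholded peak. Their signal value per peak has no stated scale, and rank 1 has the highest signal of its list. Where signals of both replicates are given side by side or plotted, each is read within its own list. Their relative size is not read as a difference between the replicates.

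Absent peaks carried the same short sequences at their summits as shared peaks did. Windows from 50 bp before to 50 bp after each summit were read from the ce11 genome. In 627 of 2710 absent peaks (23.1%) the window held CTGCGTCT on either strand, against 742 of 2623 shared peaks (28.3%). Only 1.48% of windows of the same length taken from 200 to 100 bp upstream of all 19973 protein-coding genes held it. Those promoter windows were not matched to the summits in place or GC content. Their median GC content was 33.7%, against 45.5% at absent and 50.5% at shared summits. GAGAGA was found in 40.1% of absent and 40.4% of shared windows, and in 8.42% of the promoter windows. At least 1 of these sequences was present in 50.7% of absent windows, 49.3% of shared windows and 9.29% of promoter windows. The reverse complement of the first, AGACGCAG, begins with the last 3 letters of GAGAGA, so the matches can overlap. CTGCGTCT was picked after shares of many short sequences had been seen, so its high share is a description.

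The windows below are the plus strand of ce11, each centred on the summit of an absent peak. CTGCGTCT, GAGAGA and their reverse complements are in capitals, except in the last window. They show summits that hold the first sequence (acdh-9, fbxl-3, fbxa-76), GAGAGA alone (pix-1, bet-2, pas-7) or neither (cdgs-1, mex-5), and a tRNA gene with its promoter element.
pix-1, chrX:13727039-13727139: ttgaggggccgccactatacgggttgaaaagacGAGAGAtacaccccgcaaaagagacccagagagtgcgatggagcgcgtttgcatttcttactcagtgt
bet-2, chrX:10568885-10568985: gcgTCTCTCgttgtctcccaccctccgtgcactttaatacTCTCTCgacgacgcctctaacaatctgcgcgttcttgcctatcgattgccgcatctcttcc
pas-7, chrII:10100062-10100162: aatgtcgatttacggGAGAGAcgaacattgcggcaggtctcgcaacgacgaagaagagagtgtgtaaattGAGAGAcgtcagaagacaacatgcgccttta
acdh-9, chrII:848690-848790: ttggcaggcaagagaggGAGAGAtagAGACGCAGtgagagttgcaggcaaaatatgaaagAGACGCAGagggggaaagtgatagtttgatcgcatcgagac
fbxl-3, chrII:5398961-5399061: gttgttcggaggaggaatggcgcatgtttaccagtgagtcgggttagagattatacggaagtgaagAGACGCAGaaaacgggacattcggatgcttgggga
fbxa-76, chrIII:1249344-1249444: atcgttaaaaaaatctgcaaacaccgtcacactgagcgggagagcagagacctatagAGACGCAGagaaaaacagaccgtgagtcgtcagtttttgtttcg
cdgs-1, chrIV:7815945-7816045: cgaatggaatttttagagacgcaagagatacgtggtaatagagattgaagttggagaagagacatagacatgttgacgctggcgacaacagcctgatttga
mex-5, chrIV:13353353-13353453: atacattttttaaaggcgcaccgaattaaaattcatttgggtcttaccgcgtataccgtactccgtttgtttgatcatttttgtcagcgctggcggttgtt
tRNA gene WBGene00014440, chrX:13717183-13717283: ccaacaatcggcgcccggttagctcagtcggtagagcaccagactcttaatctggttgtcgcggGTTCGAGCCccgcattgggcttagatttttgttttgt

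In the tRNA window the capitals mark GTTCGANNC, the B box inside tRNA genes that RNA polymerase III factors recognise. Where CTGCGTCT was present, its centre lay a median of 13 bp from the summit in absent peaks (interquartile range 6 to 23) and 11 bp in shared peaks (6 to 19). GAGAGA lay a median of 15 bp and 14 bp away. Matches were searched only inside the summit windows, so short distances were in part set by the search. No distance for random placement was computed. Under the same limit, GTTCGANNC lay a median of 34 bp away in absent peaks (n = 37) and 33 bp in shared peaks (n = 83). By median, CTGCGTCT and GAGAGA lay nearer to the summit than GTTCGANNC did in either set.

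Shares of both sequences were lower at low signal, as the plot of short sequences by signal bin shows. When the replicate 2 list was cut into 10 bins of signal, CTGCGTCT stood in 42.9% of absent windows in the bin of highest signal (n = 14) and 9.62% in the lowest (n = 447). In shared windows it went from 45.5% (n = 519) to 2.299% (n = 87). Absent peaks had the higher share in 9 of 10 bins for CTGCGTCT and in 10 of 10 for GAGAGA. Shared peaks more often lay at small RNA genes, and of 84 absent peaks at tRNA genes only 2 (2.38%) held CTGCGTCT. With all peaks at tRNA, snRNA and snoRNA genes left out, absent peaks were higher in 6 of 10 bins for CTGCGTCT and in 9 of 10 for GAGAGA. The overall shares were then 23.8% of absent and 34.02% of shared peaks for CTGCGTCT. For GAGAGA they were 41.02% and 45.6%.

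**Figure D1:**
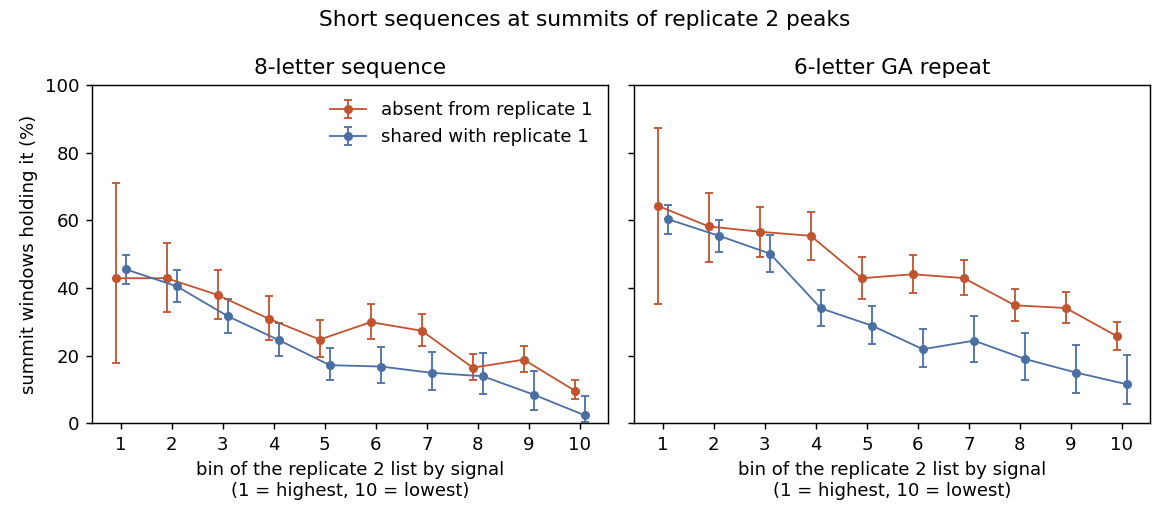
Share of summit windows (%) that hold CTGCGTCT (left, 8 letters) or GAGAGA (right, 6 letters) on either strand, by bin of signal in replicate 2, with exact binomial 95% intervals. Shares were lower at low signal in both sets, for CTGCGTCT 42.9% in the first and 9.62% in the last bin of absent peaks.

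Bases other than these sequences also differed. Median GC content at the summit was 45.5% in absent peaks and 50.5% in shared peaks, against 33.7% in the promoter windows of all genes. It was lower in absent peaks in 9 of 10 signal bins and equal in the other. TTTTTT, a poly(dT) run common in worm promoters, was present in 21.3% of absent, 14.5% of shared and 45.8% of promoter windows. TGATAA, the letters of a GATA factor site, stood in 5.65%, 3.55% and 11.8% of these windows. Letters of a TCF/POP-1 site, CTTTGAT, were rare in all 3, at 0.775%, 0.877% and 2.18%. A match of letters is not a binding site.

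Absent peaks sat low in their own list. Their median signal was 92.0 (interquartile range 69.2 to 138, full range 12.4 to 909.6) and the median for shared peaks was 215. The median rank of absent peaks lay at 67.8% of the list, and that of shared peaks at 30.2%. Absent peaks made up 2.63% of the bin of highest signal (14 of 533) and 83.7% of the lowest bin (447 of 534), rising at each step in the plot of peaks by signal. The score reached its cap of 1000 in 85.3% of absent and 97.4% of shared peaks, so most absent peaks had the highest score the list allows. These values helped to choose the members and carry no test.

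**Figure D2:**
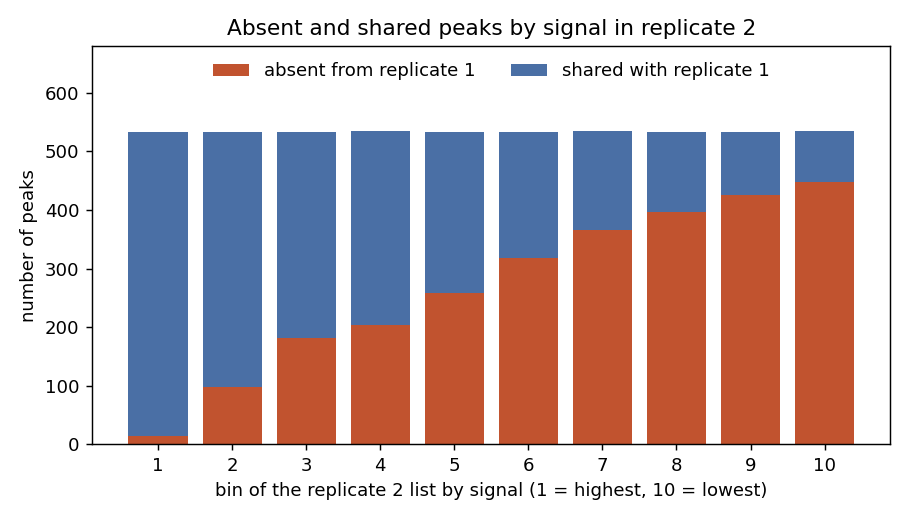
Number of absent and shared peaks in each of 10 bins of replicate 2 signal, from the highest (1) to the lowest (10). Absent peaks rise from 14 of 533 to 447 of 534.

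Most absent peaks were present in replicate 1 below its threshold. An absent peak overlapped the ranked list of replicate 1, which holds 39515 peaks and covers 11.7% of the nuclear genome, in 1994 of 2710 cases. This is 73.6% (exact Clopper-Pearson 95% interval 71.9 to 75.2), beside 86.6% of all replicate 2 peaks, a share that includes every shared peak by construction. Of the 21633 ranked replicate 2 peaks under that replicate's threshold, 53.6% overlapped the same list. Intervals count peaks as independent and cover counting error only.

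Their replicate 1 peaks were placed above the middle of that list. Median replicate 1 signal at the 1994 peaks was 32.1 (interquartile range 23.3 to 40.97), where the whole ranked list had a median of 18.1. The median rank lay at 16.2% of the list, and 1349 absent peaks (49.8% of all) met a peak in its upper 25%. Shared peaks had a median replicate 1 signal of 112.9 and a median rank at 3.43%. In the plot of both signals, most absent peaks lie below most shared ones of like replicate 2 signal, with some overlap in replicate 1 signal, and no absent peak has a replicate 2 signal above 909.6. The highest replicate 1 signal was 99.5 among absent peaks and 2445 among shared ones.

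**Figure D3:**
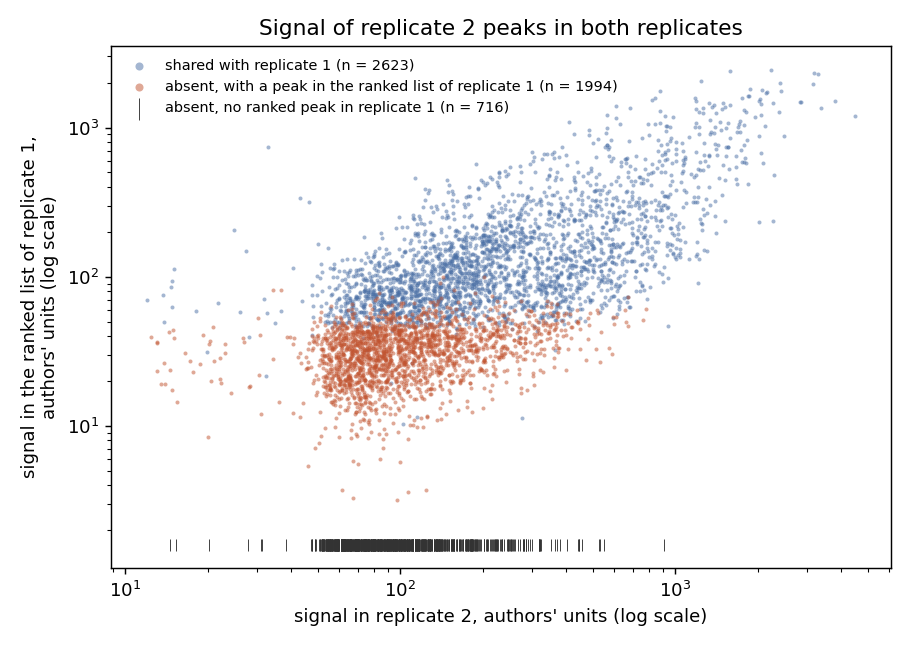
Signal of each replicate 2 peak (x axis) against that of the strongest overlapping peak in the ranked list of replicate 1 (y axis), both in the authors' units on log scales. Ticks at the bottom mark the 716 absent peaks with no ranked peak in replicate 1, up to a replicate 2 signal of 909.6.

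Where both replicates had a peak, the summits lay close together. The summit gap between replicates had a median of 33 bp for absent peaks (interquartile range 12 to 72) and 13 bp for shared ones, and it was within 100 bp for 1695 absent peaks (62.5% of all). Presence in the ranked list of replicate 1 was somewhat lower at low replicate 2 signal. It was 85.7% in the bin of highest signal, 72.0% in that of lowest signal and 70.2% in the bin with the lowest share. A count of 716 absent peaks had no ranked peak in replicate 1. Of these, 273 (10.1% of all absent peaks) were also missing from the ranked list over both replicates.

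Entry into the authors' sets over both replicates was graded. The conservative set held 1077 absent peaks (39.7%, interval 37.9 to 41.6) and 98.9% of shared peaks. The other thresholded list over both replicates held 2199 absent peaks (81.1%). By signal bin, the conservative share of absent peaks went from 92.9% in the highest to 18.6% in the lowest. Both sets were called on data that include replicate 2, so this is not independent of the rule.

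Combining the lists gave 4 kinds of absent peak. The largest, 1021 peaks, was in the conservative set and in the ranked list of replicate 1, with a median replicate 2 signal of 118.7. Another 973 were in the ranked list only, with a median of 77.6. A further 660 were in neither, with a median of 85.5, and 56 were in the conservative set only, with a median of 137. The 660 peaks in neither list were not poorer in the sequences above: 31.4% held CTGCGTCT (interval 27.8 to 35.1) and 43.5% held GAGAGA. Among the 1021 peaks found in both lists these shares were 22.3% and 41.6%, and among the 973 they were 18.4% and 36.2%.

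Promoters were the most frequent place of an absent summit. A promoter was counted where a summit fell from 500 bp upstream to 100 bp downstream of an annotated 5′ end of a protein-coding gene, and 1265 absent summits did so (46.7%, interval 44.8 to 48.6). Among shared peaks the share was 39.5% (37.7 to 41.4), and among the 653 peaks of replicate 1 alone it was 24.2%. Absent peaks were higher than shared ones in 9 of 10 signal bins, all but the bin of highest signal, where 42.9% of 14 absent and 53.4% of shared peaks were at promoters. Intergenic summits made up 29.8% of absent and 28.5% of shared peaks. Introns held 15.9% and 24.0%. Shared peaks lay more often at small RNA genes, 18.99% against 3.84%. No class shares are given here with those peaks left out, so the differences by class cannot be separated from that one.

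Peaks found in replicate 1 alone had a different make-up, as the plot of summit classes shows. Coding exons held 17.3% of them and 3′ UTRs 6.13%, while for absent peaks the shares were 1.37% and 1.73%. No signal-matched comparison of those lists is possible, because the signal has no common scale. Within the promoter window, absent summits lay a median of 159 bp upstream of the 5′ end (interquartile range 269 to 75 bp upstream, n = 1265). Shared summits lay 183 bp upstream (n = 1037). By chromosome, absent peaks were most numerous on I, with 20.4% of them against 16.9% of shared peaks, and least on X, with 12.3% against 14.9%.

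**Figure D4:**
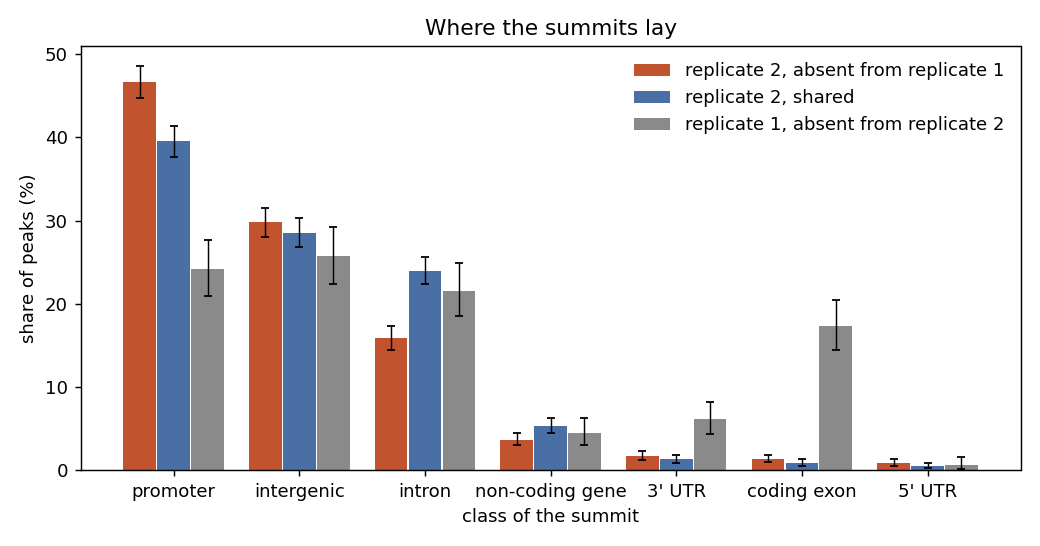
Share of peaks (%) by the class of their summit for 2710 absent peaks, 2623 shared peaks and 653 peaks of replicate 1 alone, with exact binomial 95% intervals. Promoters hold 46.7%, 39.5% and 24.2%, and coding exons 1.37%, 0.877% and 17.3%.

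A promoter summit of an absent peak was found at 1452 of 19973 protein-coding genes (7.27%), and a summit of a shared peak at 1222 (6.12%). Both kinds of summit were found at 24 genes. No summit of the thresholded list of replicate 1 lay in the window of 1415 of the 1452 genes. These counts are shaped by the rule, because an absent peak shares no base with a thresholded replicate 1 peak. They are not a result about the genes. A single summit fell in the windows of more than 1 gene at 230 of the 1265 promoter peaks, and the peak cannot then be given to either gene. Many genes named below are of this kind, among them 9 of the 13 proteasome genes, 9 of the 25 cell cycle genes, 8 of the 12 meiosis genes and 11 of the 14 splicing genes. The summits at unc-94, unc-101, erp-44.1, xrep-4, tspo-1, ric-7, mex-3, act-4 and lit-1 lay within the gene, near one of its 5′ ends.

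The strongest absent peak lay 204 bp upstream of pix-1 (chrX:13726960-13727223). Its signal was 909.6 in replicate 2, rank 219 of 5333, and no replicate 1 ranked peak overlapped it, although it is in the conservative set. The next promoter member with a gene symbol had a signal of 574. At arf-1, which encodes a small GTPase of vesicle traffic, the summit lay 439 bp upstream of one 5′ end and inside the gene (chrIII:5715552-5715822). That peak had rank 484 in replicate 2 and a signal of 33.1 in replicate 1 (rank 6041 of 39515). Its replicate 1 score was 618, short of 830.

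Further promoter members of high signal include bet-2, lin-49, utx-1 and dcp-66, whose products act on chromatin. The peak 338 bp upstream of bet-2, a bromodomain protein gene (chrX:10568712-10569108), had a signal of 517 in replicate 2 (rank 563) and 59.4 in replicate 1 (rank 2750). For lin-49, which encodes another bromodomain protein (chrIV:8620192-8620454), the values were 487 (rank 612) and 47.5 (rank 3502). Both stood high among absent peaks in both replicates. utx-1 encodes a demethylase of histone H3 lysine 27, and its peak (chrX:8556749-8556980) had signals of 408 and 49.1. dcp-66 encodes a subunit of the NuRD remodelling complex, and its peak (chrI:7542234-7542463) had signals of 385 and 44.1. The replicate 1 scores of these 4 peaks were 794, 684, 777 and 685, all short of 830.

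Others were mig-21, cdgs-1, seip-1, unc-94 and unc-101. mig-21 encodes a membrane protein needed for neuroblast migration, and its peak 61 bp upstream (chrIII:5878301-5878546) had signals of 522 in replicate 2 and 57.1 in replicate 1. cdgs-1 encodes a CDP-diacylglycerol synthase, and its peak (chrIV:7815871-7816125) had signals of 516 and 32.7. The replicate 1 score there was 71, far below that of lin-49 at a like replicate 2 signal. Seipin, a protein of lipid droplet formation, is encoded by seip-1, whose peak (chrV:6053308-6053565) had a signal of 447 (rank 678) and no ranked peak in replicate 1. unc-94 encodes tropomodulin, which caps actin filaments, and its peak (chrI:5999192-5999480) had signals of 539 and 42.6. unc-101, for a clathrin adaptor subunit, had signals of 439.8 and 49.6 at chrI:12508264-12508487.

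The strongest promoters are described for the 25 members of highest signal whose gene has a symbol and not only a sequence name, so that K02E2.11, with a signal of 532, is not counted. The remaining promoters of these 25 spanned replicate 2 signals from 362 to 490.1. They were at fahd-1, rsbp-1, fbxl-3, erp-44.1, sup-17, acdh-9, mtm-5, xrep-4, rpl-9, tspo-1, pat-6, ric-7, cyp-33C5 and crml-1. acdh-9 encodes an acyl-CoA dehydrogenase, cyp-33C5 a cytochrome P450, mtm-5 a myotubularin, crml-1 a CARMIL homolog that acts on actin, and rpl-9 a ribosomal protein. Among these, sup-17 encodes the ADAM metalloprotease that cleaves Notch receptors, with signals of 387 and 50.2. fahd-1 had the highest replicate 1 signal of this set, 57.5, beside 490.1 in replicate 2, and shares its window with ZK688.5. The summit at acdh-9 lay nearer to F28A10.13. pat-6, for the actin-binding adhesion protein parvin, had 369.7 in replicate 2 and no ranked peak in replicate 1. Of the 25, 22 had a ranked peak in replicate 1 and 21 were in the conservative set.

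The 10 strongest members outside promoters lay in introns, in non-coding genes or between genes. A pair of absent summits lay 848 bp apart in an intron of rbm-28 on chromosome II, where rbm-28 encodes an RNA-binding protein. The first (chrII:14864380-14864636) had signals of 784 in replicate 2 and 60.4 in replicate 1, and the second (chrII:14865234-14865467) of 673 and 46.7. Both were in the conservative set. An intergenic peak 527 bp upstream of rad-51, the recombinase of meiotic break repair, had signals of 670.1 and 73.1 (chrIV:10284616-10284882), just outside the promoter window. In an intron of klp-20, a kinesin-II motor gene, the peak chrIII:220424-220681 had 549.9 in replicate 2 and no ranked peak in replicate 1. It was absent from the conservative set as well.

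Peaks without any ranked counterpart were not confined to low signal. The 5 of highest signal were those at pix-1 and in klp-20, one 48 bp upstream of K02E2.11 with 532, and intergenic ones on chromosome IV with 529 and 456. In the opposite direction, the highest replicate 1 signals at absent peaks were 99.5, upstream of F54H12.10 on chromosome III, and 99.0, at the prefoldin gene pfd-1 and its neighbour F01G4.6 on chromosome IV. Replicate 2 signals at these were 201 and 143. The replicate 1 score was 62 at the first and 647 at the second, so a high signal did not go with a passing score there.

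Few absent peaks lay at small RNA genes. A summit lay in the window of a tRNA, snRNA or snoRNA gene for 3.84% of absent peaks (interval 3.15 to 4.63) and for 18.99% of shared peaks (17.5 to 20.5, 498 peaks). Absent peaks were lower in 10 of 10 signal bins. For tRNA genes the peaks numbered 84 and 352, and for snoRNA genes, which guide RNA modification, 19 and 90. For genes annotated as snRNA, a class not confined to spliceosomal RNAs, they numbered 1 and 57. By gene, 7.27% of protein-coding genes had an absent summit and 6.12% a shared one. For tRNA genes it was 95 of 612 (15.5%) and 389 (63.6%), both above protein-coding genes. It was 5.49% and 26.3% for snoRNA genes, and 0.775% and 46.5% for snRNA genes. Many tRNA and snRNA genes are nearly identical copies, so reads may have been split among them, which was not tested.

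At tRNA genes the absent summits lay close to the 5′ end of the gene. Their median position was 3.5 bp downstream of the 5′ end (interquartile range 11.5 upstream to 14.3 downstream, n = 84), and that of shared summits 10.5 bp upstream (33 upstream to 6 downstream, n = 352). GTTCGANNC was in the window of 16 of the 84 (19.05%) and of 57 of the 352 (16.2%). Of the 84 peaks, 75% were in the conservative set and 82.1% in the ranked list of replicate 1, beside 38.7% and 72.3% for promoter members. The 1 absent peak at an snRNA gene (chrII:13829682-13829932) had a replicate 2 signal of 405 and lay 2 bp from a replicate 1 peak.

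Gene lists written from gene names were read against the 7.27% of all protein-coding genes with an absent summit. Of 32 lists, 19 lay above this share, and 17 had more genes at absent than at shared peaks, with 11 the other way. The lists are small and share peaks and genes, so the counts describe them and single none out. In the plot of gene lists, the proteasome, cell-cycle and germline lists stand at the top, and the chemoreceptor, lectin and collagen families at the bottom.

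**Figure D5:**
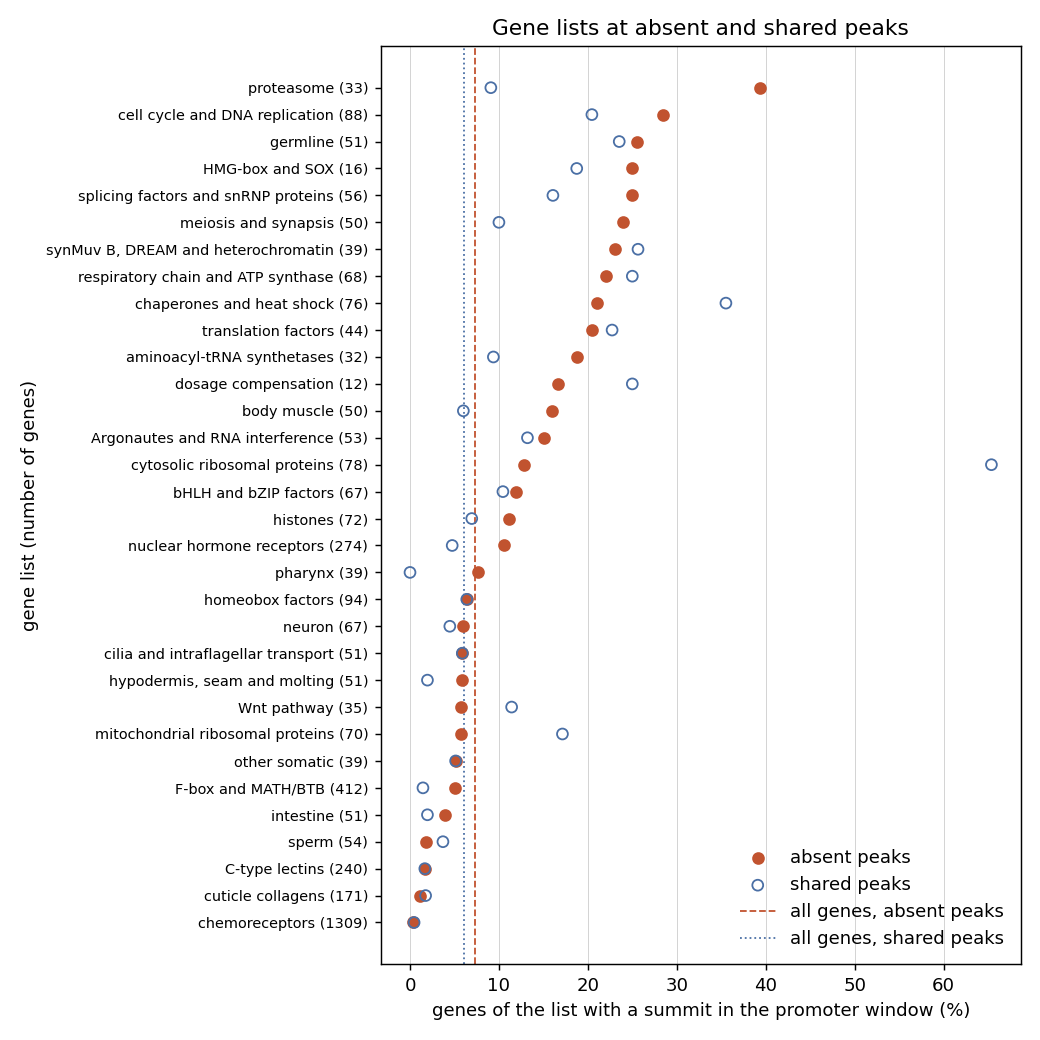
Percent of each list's genes with a promoter summit of an absent peak (filled) or a shared peak (open). Lines mark all protein-coding genes, at 7.27% and 6.12%; the proteasome list has 39.4% and 9.09%, and cytosolic ribosomal proteins 12.8% and 65.4%.

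Proteasome genes led the lists. The proteasome is the barrel-shaped protease that degrades ubiquitin-tagged proteins, and 13 of its 33 genes (39.4%) had an absent summit, against 3 with a shared one. Core-particle genes were pas-3, pas-4, pas-5, pas-6, pas-7, pbs-3, pbs-6 and pbs-7, and regulatory-particle genes were rpn-1, rpn-5, rpn-6.1, rpn-7 and rpt-2. pas-7 had the highest signal, 337 in replicate 2 (rank 990) and 49.1 in replicate 1 (rank 3365), and its window is shared with puf-12. pas-5 had signals of 188 and 34.04, and rpn-6.1 of 129.7 and 25.9, the latter with its summit inside the gene. Of the 13 genes, 11 had a ranked peak in replicate 1 and 5 were in the conservative set. When each summit was given to its nearest gene only, 8 of the 33 genes had one (24.2%, where all genes gave 6.14%). In a narrow window of 250 bp upstream to 50 bp downstream it was 7 (21.2%, all genes 4.82%).

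Cell cycle and DNA replication genes followed with 25 of 88 (28.4%), and 18 had a shared summit. Kinases and cyclins were represented by cdk-2, cdk-4, cdk-7, plk-1, cyb-2.1, cyb-2.2 and cyb-3, and replication factors by lig-1, mcm-3, mcm-5, orc-5, psf-1, psf-2 and sld-2. cdk-7, a kinase of both cell cycle and transcription, had a signal of 320.4 in replicate 2 and no ranked peak in replicate 1. DNA ligase gene lig-1 had signals of 221 and 29.4. The list was built in part from name prefixes and so also took mcm-3AP, cdk-9, cdk-11.2 and cdc-5L, which act in RNA metabolism or transcription. Ranked peaks in replicate 1 were found at 16 of the 25 genes.

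Genes that act in the germline were found at both kinds of peak. Germ granule, oogenesis and maternal regulators had 13 of 51 genes (25.5%) with an absent and 12 with a shared summit. glh-2, a germ granule helicase gene, had signals of 159.2 in replicate 2 and 39.2 in replicate 1, and mex-3, an RNA-binding regulator of maternal messages, 131 and 40.7. mex-5, a zinc-finger polarity protein, had 106.7 and 46.5 at a summit it shares with rec-8, the meiotic cohesin. For meiosis and synapsis genes the counts were 12 and 5 of 50. The synaptonemal complex genes syp-6 and syp-5 had replicate 2 signals of 159.4 and 133, with 34.6 and 30.7 in replicate 1. At zhp-2, for a meiotic RING-finger protein, the signals were 159.7 in replicate 2 and 60.3 in replicate 1. The summit at syp-6 lay nearer to mei-2, and that at zhp-2 nearer to lotr-1. Sperm genes had 1 absent and 2 shared summits among 54.

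Genes for chromatin and RNA processing came in comparable numbers. Splicing factors had 14 of 56 genes (25%) at absent peaks and 9 at shared ones, led by prp-18 with signals of 312 and 51.03. With the nearest gene only, it was 7 of 56 (12.5%, all genes 6.14%) and 6. Among synMuv B, DREAM and heterochromatin genes it was 9 and 10 of 39. lin-35, the worm homolog of the retinoblastoma protein, had signals of 216 and 51.7 at a summit shared with vps-51. HMG-box genes counted 4 of 16, which were hmg-1.1, hmg-3, hmg-4 and hmg-11, and 2 of 16 (12.5%) with the nearest gene only or in the narrow window. At hmg-1.1 the signals were 154 in replicate 2 and 38.97 in replicate 1. hmg-4 and hmg-3, for subunits of the FACT histone chaperone, had 136 and 108.9 in replicate 2. The summit at hmg-4 lay nearer to T20B12.3. The summit at hmg-1.2 itself belonged to a shared peak.

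Ribosomal protein genes were found more often at shared peaks. An absent summit was found at 10 of 78 cytosolic ribosomal protein genes (12.8%), above the 7.27% of all genes, and a shared one at 51 (65.4%). It was 4 of 78 (5.13%, all genes 6.14%) with the nearest gene only and 3 of 78 (3.85%, all genes 4.82%) in the narrow window, so their place above all genes depended on the window and on summits shared between genes. rpl-9 was the strongest of the 10, with 372 in replicate 2 and 57.3 in replicate 1, and all 10 had a ranked peak in replicate 1. Mitochondrial ribosomal proteins had 4 and 12 of 70, and chaperones 16 and 27 of 76. Respiratory chain and ATP synthase genes were at 15 and 17 of 68, translation factors at 9 and 10 of 44, and aminoacyl-tRNA synthetases at 6 and 3 of 32.

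Tissue lists other than the germline lay near or below the share of all genes, with 1 exception. Body muscle had 8 of 50 genes (16%) at absent and 3 at shared peaks. These were pat-6, unc-60, act-4, act-2, pat-10, lev-11, lim-8 and act-1, genes of adhesion sites, actin and its regulators. In the narrow window it was 3 of 50 (6%), where all genes gave 4.82%. unc-60, for the actin-severing protein cofilin, had 229 in replicate 2 and 28.0 in replicate 1, and act-4 had 193 and 49.01. Actin genes are near-identical copies, so their peaks may share reads. Neuron, cilia, hypodermis and pharynx lists had 4 of 67, 3 of 51, 3 of 51 and 3 of 39 genes at absent peaks. The intestine list had 2 of 51 and the mixed list of other somatic tissues 2 of 39.

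Nuclear hormone receptors, a large worm family of ligand-regulated transcription factors, had 29 of 274 genes (10.6%) at absent and 13 at shared peaks. Of the 29, 17 were on chromosome V, which holds 167 of the 274, and 8 were on chromosome IV, which holds 33. nhr-182 was highest, with 306 in replicate 2 and 45.5 in replicate 1, and a replicate 1 score of 798. nhr-32 had 265 and 27.3, while nhr-132 had 259 and no ranked peak. F-box and MATH/BTB genes, substrate adaptors of ubiquitin ligases, had 21 of 412 (5.10%) at absent and 6 at shared peaks. The highest peak of that family, with 314 and 30.1, lay in the windows of both fbxa-76 and fbxa-77.

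Other regulators lay on both sides of the 7.27% of all genes. Homeobox genes had 6 (6.38%) at absent and 6 at shared peaks of 94, and bHLH and bZIP factors 8 (11.9%) and 7 of 67. Argonaute and RNA interference genes had 8 (15.1%) and 7 of 53, and histones 8 (11.1%) and 5 of 72. Of the 8 histone genes, 6 lay at a summit in the windows of several genes. Wnt pathway genes had 2 of 35 (5.71%), and 4 at shared peaks. The 2 were lit-1 with 349.6 and 38.7 and pry-1 with 110.8 and no ranked peak. lit-1 encodes a Nemo-like kinase and pry-1 an Axin homolog. Dosage compensation genes had 2 of 12 (16.7%), sdc-3 and dpy-26, with 3 at shared peaks. Chemoreceptors had 4 of 1309 genes (0.306%), C-type lectins 4 of 240 and cuticle collagens 2 of 171, all far below the share of all genes, and 6, 4 and 3 at shared peaks.

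Some members owed their place to a few bases. Peaks in the promoter window of lin-5, a spindle-positioning gene (chrII:7860464-7860646, signal 233), and on chromosome III (chrIII:5211300-5211615, signal 30.3) abutted a replicate 1 peak with 0 bases between. On the other side of the rule, the shared peaks with the smallest overlap had 6, 8 and 10 bases in common. Within 1000 bp of a replicate 1 peak lay 262 absent peaks (9.67%), and 23 within 100 bp. By score, the highest replicate 1 values at absent peaks were 830 and 828, at the threshold, and the best replicate 2 ranked peak under the threshold had 829. The peak with 830 is 1 of 19 in the ranked list of replicate 1 that pass the score yet are not in its thresholded list. At the low end, the absent peaks of lowest signal were at 12.4 in lec-1, a galectin gene, 12.99 between genes on chromosome I, and 13.05 in apc-17, the first and last within coding exons.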

How the data were processed

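The deposited files are peak lists on ce11, per the labels; the sources used here do not give an aligner or peak caller. For each peak the authors deposited an IDR score, a signal value of unstated scale and a summit offset, and, in ranked lists, a −log10 value of the global IDR. A score of 830 corresponds to an IDR of 0.01. Each replicate has a ranked and a thresholded list, and further lists cover both replicates. Numbered replicates follow the labels. Repeated coordinates (4 and 9 entries in the thresholded lists of replicates 1 and 2) were kept.

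Overlap needed 1 bp. Where several ranked peaks of replicate 1 overlapped, the one of highest signal was used. Summits were assigned with the Ensembl release 115 annotation and sequence read from the RefSeq genome of the same assembly; no peak ran past a chromosome end. A summit went to the first class that fitted: promoter, then either UTR (5′ before 3′), then coding exon, intron, non-coding gene or none. Sequences were counted at most 1 time per window. Intervals are Clopper-Pearson, 95%. Work was done in Python 3.11.15 with pandas 2.3.3, numpy 2.4.6 and scipy 1.17.1, and overlap and window steps were tested on simulated peaks.

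Members, gene lists and the rules for naming genes were chosen with earlier results of these data known. Some list entries were corrected after the files were opened and before list counts were made. Named genes are the 25 promoter members of highest signal whose gene has a symbol (not only a sequence name), the 10 other members of highest signal, up to 3 per gene list, the 5 highest without a ranked peak in replicate 1, the 5 with the highest signal there, and the 3 of lowest signal; any other member was picked with its value in view. No test was run, because the study has 1 group.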

Additional observations from a re-analysis of the deposited data

How the results depend on the processing

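No paired analysis was possible because there is 1 group, and leaving out a replicate gives no value, since the rule needs both. The count of 2710 absent peaks was 2941 when at least 50% of the replicate 2 peak had to be covered, 2790 with summits within 100 bp, and 757 in the upper 50% of the replicate 2 list by signal. These were in the ranked list of replicate 1 in 77.4% of cases and in the conservative set in 62.4%; their median rank lay at 34.7% of the list by construction, and 2.77% were at small RNA genes. With at least 50% of the peak covered, the ranked share was 75.7%, the conservative share 44.1% and the median rank 66.0%. The ranked share was 65.2% with the upper 50% of the ranked list of replicate 1 and 62.6% with summits within 100 bp. The other thresholded set gave 81.1% in place of 39.7%.

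Promoter windows of 250 bp upstream to 50 bp downstream gave a promoter share of 32.5% for absent and 25.8% for shared peaks, and 962 genes. Windows of 1000 to 200 bp gave 59.1% and 50.02%, and 4.72% of absent and 20.1% of shared peaks at small RNA genes. In each window absent peaks had the higher promoter share and the lower small RNA share. Putting back replicate 1 peaks with passing scores (2709 absent peaks) and counting repeated coordinates 1 time were chosen after seeing the data. Peak lists without reads leave depth unknown, so a place without a peak is not shown to be unbound.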
